A study of Mus with 3 samples.

Results

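The cells described here are CD8 T cells of MC38 tumors with high granzyme B and perforin RNA, few UMIs summed over Ccl3, Ccl4, Xcl1 and Ifng, and few or no transcripts of 3 genes of resting T cells; the limit did not cover Ccl5, which they held in quantity. MC38 is a mouse colon carcinoma line that grows under the skin of C57BL/6 mice. A barcode was a member if it had 500 or more gene UMIs (unique molecular identifiers, 1 for each captured RNA molecule), a T cell receptor (TCR) clonotype number, at least 1 Cd8a UMI without any Cd4 UMI, 10 or more UMIs of Gzmb and Prf1 together, and low counts of 5 other gene groups. These limits were under 5 UMIs of the cell cycle genes Mki67, Top2a, Birc5 and Pclaf, under 5 of the granzymes Gzmc, Gzmd, Gzme and Gzmf, under 20 of Ccl3, Ccl4, Xcl1 and Ifng, under 5 of the interferon-induced genes Ifit1, Ifit3, Ifit3b, Usp18 and Cmpk2, and under 2 of Tcf7, S1pr1 and Il7r. Members were thus chosen by their measured UMIs of these genes, so no level of these genes, and no difference between members and other cells, is a finding on its own. The rule gave 311 members among 2046 CD8 barcodes, 3702 barcodes with a TCR and 5600 barcodes with 500 or more UMIs.

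Tumors were taken on day 16 from mice of 3 genotypes: WT, RARα-KO and RARα-TG. RARα is the retinoic acid receptor encoded by Rara, and the study asked how its level in T cells shapes tumor-infiltrating cytotoxic T cells. RARα-KO mice carry a floxed Rara allele and a Cre driven by the distal Lck promoter, which is active in T cells, and RARα-TG mice express Rara from the CD2 promoter. The study names both C57BL/6 and dLck-Cre mice as controls, and which of these gave the WT tumor, and how many mice stand behind a genotype, were not given in the sources used here. For each genotype, 30000 sorted T cells were combined with 10000 cells of the whole suspension, so the makeup of the library follows this mixture. An antibody hashtag marked the genotype of a cell, and the 3 genotypes were pooled in 1 library of the 10x Genomics 5′ kit. Members were assigned to a genotype by a top hashtag of 10 or more UMIs that was 3 or more times the next, which gave 69 WT, 221 RARα-KO and 11 RARα-TG members, while 10 members had no genotype. With 1 sample per genotype there is no replicate and no test, and every interval below covers counting error only. The labels also call the tissue spleen and the cells naive CD8 T cells, against the tumor protocol in the same labels, which was followed here.

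Cytotoxic CD8 T cells kill by releasing granules that hold perforin, which opens a way through the membrane of the target cell, and granzymes, proteases that start cell death. After the receptor meets its antigen, naive CD8 cells divide, lose the genes of lymphoid homing and gain granule genes, integrins and receptors for inflamed tissue, and under lasting antigen they also gain inhibitory receptors such as PD-1 (Pdcd1), TIM-3 (Havcr2) and LAG-3 (Lag3). Cells of a clone carry the same rearranged receptor, so the receptor sequence follows a clone through these states.

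The members carried T cell genes. All 10 T cell markers listed (Cd3d, Cd3e, Cd3g, Cd247, Cd8a, Cd8b1, Trac, Lck, Cd2 and Cd5) were detected in each genotype, with medians per member of 53 UMIs in WT, 49 in RARα-KO members and 28 in RARα-TG. Cd8b1, the second CD8 chain, which the rule did not use, was found in 66 of 69 members from WT, in 210 of 221 from RARα-KO and in 9 of 11 from RARα-TG, and in 0 of 26, 0 of 56 and 0 of 17 myeloid barcodes, which by the floor of 3 counts allows shares of up to 11.5%, 5.36% and 17.6% of those barcodes with a UMI. Lyz2, C1qa, C1qb, Csf1r, S100a8 and S100a9, which define macrophages and neutrophils, were at 0 UMIs in the members of each genotype, and the 10 myeloid markers summed to 6, 40 and 1 UMIs. Stromal and tumor cell markers stood apart in 2 RARα-KO members, which had 44 and 89 such UMIs and 30231 and 38949 gene UMIs, where no other member exceeded 15831. Ratios that rest on these 2 barcodes are given with and without them.

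Members had a median of 6394 UMIs in WT, 5761 in the RARα-KO group and 3506 in RARα-TG, and together 473536, 1427340 and 51074 UMIs. Levels of RARα-TG members therefore rest on few counts. Over all 311 members, the top hashtag had a median of 3690 UMIs and was 19.7 times the next at the median. In WT the labels were less clear. A hashtag rule of 20 UMIs and 10 times the next kept 10 of 69 WT members and 206 of 792 WT CD8 cells. Every barcode with a TCR clonotype number had 500 or more gene UMIs (3702 of 3702). A single productive TCR beta chain was found in 283 members, 23 had 2 or more and 5 had none, and no doublet caller was applied.

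The receptors of the largest clonotypes are shown first, since they were not used by the rule and show which clones supplied the members. Each sequence is the CDR3 of the beta chain in DNA letters, the loop that touches the antigen, read from the deposited contigs. Capitals mark the bases outside the V start and J end that at least 50% of the distinct CDR3s with the same segments share. They cover about the stretch between the V and J segments, with any bases of a D segment in it. The WT clonotypes 5, 6, 10, 17 and 16 held 10, 7, 6, 6 and 3 members, and the RARα-KO clonotypes 1, 2, 4, 3 and 9 held 30, 20, 16, 14 and 11. Their beta chains read as follows.
WT clonotype 5, TRBV31 with TRBJ1-6: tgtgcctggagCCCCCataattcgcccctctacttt
WT clonotype 6, TRBV31 with TRBJ2-4: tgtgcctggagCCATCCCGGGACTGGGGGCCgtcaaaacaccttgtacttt
WT clonotype 10, TRBV3 with TRBJ2-1: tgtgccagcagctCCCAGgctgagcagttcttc
WT clonotype 17, TRBV12-1 with TRBJ2-7: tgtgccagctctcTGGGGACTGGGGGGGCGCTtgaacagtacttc
WT clonotype 16, TRBV14 with TRBJ2-1: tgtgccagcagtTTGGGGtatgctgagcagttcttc
RARα-KO clonotype 1, TRBV16 with TRBJ1-3: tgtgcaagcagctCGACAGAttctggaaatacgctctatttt
RARα-KO clonotype 2, TRBV3 with TRBJ2-2: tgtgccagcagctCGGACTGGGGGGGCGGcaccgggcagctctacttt
RARα-KO clonotype 4, TRBV16 with TRBJ2-1: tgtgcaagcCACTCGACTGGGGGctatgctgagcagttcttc
RARα-KO clonotype 3, TRBV16 with TRBJ1-4: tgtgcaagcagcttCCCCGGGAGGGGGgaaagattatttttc
RARα-KO clonotype 9, TRBV16 with TRBJ2-7: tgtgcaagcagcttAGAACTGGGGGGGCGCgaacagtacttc

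Of the 5 RARα-KO clonotypes, 4 used TRBV16, and no WT clonotype among the 5 did. Over all members with a beta chain, TRBV16 (Trbv16, GRCm38 chromosome 6, 41151791 to 41152230) was the main beta segment of 127 of 218 RARα-KO cells (58.3%, Clopper-Pearson 95% interval 51.4% to 64.9%) and of 6 of 67 WT cells (8.96%, 3.36% to 18.5%). Counted once per clonotype, it was found in 26 of 64 clonotypes from RARα-KO (40.6%, 28.5% to 53.6%) and 4 of 32 from WT (12.5%, 3.51% to 29.0%). In RARα-KO CD8 clonotypes without a member the share was 28 of 105 (26.7%, 18.5% to 36.2%), so the interval overlapped that of the member clonotypes. TRBV31 was the main beta segment of 19 of 67 WT members (28.4%), which came from 5 of 32 clonotypes, and of 6 of 218 RARα-KO members (2.75%).

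The alpha chains of the RARα-KO clonotypes 1, 4 and 3 used TRAJ22 (Traj22, GRCm38 chromosome 14, 54197248 to 54197307), and were of the same length and ended in the same 26 bases, shown here in capitals. By the marking used for the beta chains above, these 26 bases belong to the J end and would stand in small letters. The shared end alone therefore does not set these clonotypes apart from others with TRAJ22. TRAJ22 was singled out after its values were seen.
RARα-KO clonotype 1, TRAV14N-3 with TRAJ22: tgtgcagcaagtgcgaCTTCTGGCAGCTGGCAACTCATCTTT
RARα-KO clonotype 4, TRAV12D-1 with TRAJ22: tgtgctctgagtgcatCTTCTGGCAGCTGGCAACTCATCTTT
RARα-KO clonotype 3, TRAV14N-3 with TRAJ22: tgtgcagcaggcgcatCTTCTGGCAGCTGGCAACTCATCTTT
The chain was read in 30 of 30 members of clonotype 1, 16 of 16 of clonotype 4 and 5 of 14 of clonotype 3. A productive TRAJ22 alpha chain was found in 25 of 56 RARα-KO member clonotypes with any alpha chain, and in 23 of these it had 42 bases and this end, as 12 distinct CDR3s in 96 members. The same form was found in 17 of 80 RARα-KO CD8 clonotypes without a member. In WT, 1 of 30 member clonotypes had a TRAJ22 chain and none had this form. The form was found in 2 of 134 WT CD8 clonotypes without a member. In RARα-TG it was found in 1 of 7 member clonotypes and in 3 of 64 CD8 clonotypes without a member. Some of the RARα-KO clonotypes also shared chains. In clonotype 1, 6 of 30 members carried the beta chain of clonotype 4 as a second chain. In clonotype 4, 3 of 16 members carried that of clonotype 9, and 1 of 11 members of clonotype 9 carried that of clonotype 4. None of the 5 WT clonotypes had a member with a second beta chain. Whether such barcodes are 1 cell with 2 chains or a mixture was not tested, so the number of separate RARα-KO clonotypes is uncertain.

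Members made up a larger part of the CD8 cells in the RARα-KO tumor than in the WT tumor. They were 69 of 792 WT CD8 cells (8.71%, 6.84% to 10.9%), 221 of 1039 RARα-KO CD8 cells (21.3%, 18.8% to 23.9%) and 11 of 101 RARα-TG CD8 cells (10.9%, 5.56% to 18.7%). The WT and RARα-KO intervals did not overlap, while the RARα-TG interval held the WT value and ended just under the lower bound of RARα-KO. Of all barcodes with a TCR, members were 5.35% in the WT tumor, 14.5% in the RARα-KO tumor and 1.63% in the RARα-TG tumor, where CD8 cells were 101 of 676.

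**Figure D1:**
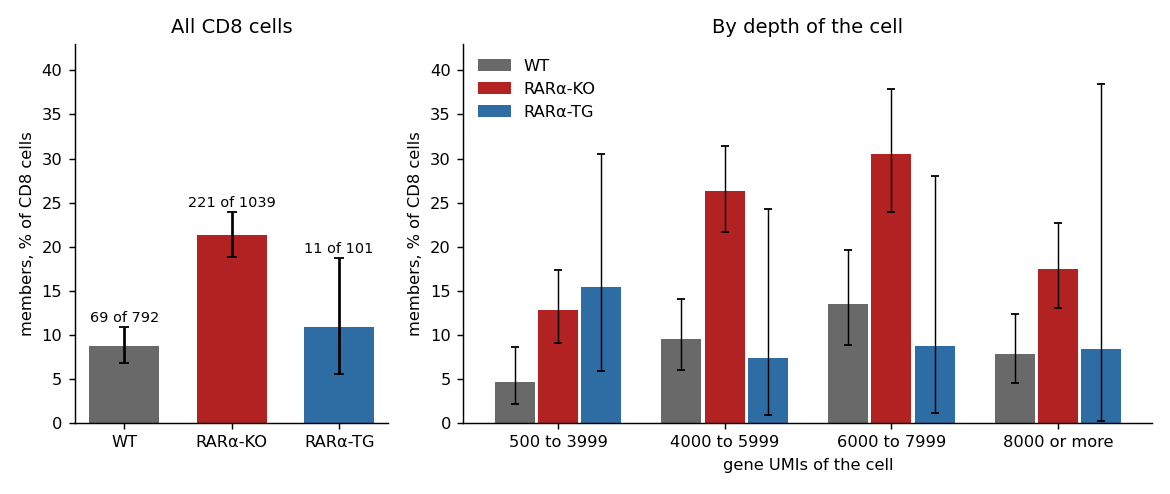
Members as a percentage of the CD8 barcodes of each genotype, over all CD8 barcodes and within bands of total UMIs per barcode, with exact 95% binomial intervals. RARα-KO stands at 21.3% and WT at 8.71%, and RARα-KO is above WT in each of the 4 bands; RARα-TG bands hold at most 39 cells.

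The order of WT and RARα-KO held in each band of depth, while the place of RARα-TG did not. From 500 to 4000 UMIs, RARα-TG had the highest share, 6 of 39 (15.4%, 5.86% to 30.5%), with an interval that overlapped those of WT and RARα-KO. In the deeper bands it had 7.41%, 8.70% and 8.33%. Among CD8 cells of 500 to 4000 UMIs the share was 4.64% in WT and 12.8% in RARα-KO, from 4000 to 6000 UMIs 9.46% and 26.3%, from 6000 to 8000 UMIs 13.5% and 30.6%, and above 8000 UMIs 7.77% and 17.4%. Of the 6 conditions besides the CD8 gate, each taken alone, 3 were passed more often by RARα-KO than by WT cells with intervals that did not overlap. The Gzmb and Prf1 level was reached by 41.5% of WT and 54.96% of RARα-KO CD8 cells, the limit on Gzmc to Gzmf was met by 75.8% and 91.6%, and that on the memory genes by 50.5% and 58.5%. The chemokine condition went the other way, passed by 96.0% of the WT but 86.8% of the RARα-KO cells, and the limits on cycling and interferon genes were met by like shares. Among cells that met all other conditions, 69 of 255 in WT (27.1%, 21.7% to 33.0%), 221 of 426 in RARα-KO (51.9%, 47.0% to 56.7%) and 11 of 37 in RARα-TG (29.7%, 15.9% to 47.0%) also reached 10 UMIs of Gzmb and Prf1.

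Around the members lie CD8 cells that fail the rule in a single condition. Cells that lacked only the Gzmb and Prf1 level numbered 186 from WT, 205 from RARα-KO and 26 from RARα-TG. Cells with 2 or more UMIs of Tcf7, S1pr1 and Il7r numbered 66, 141 and 8, those with Gzmc to Gzmf 61, 32 and 0, those with high chemokines 8, 52 and 1, cycling cells 7, 14 and 1, and cells with interferon-induced genes 5, 7 and 1. Around the cytotoxic limit, cells were grouped by their UMIs of Gzmb and Prf1, which sets the order of their Gzmb levels. Levels are given in CPM (counts of a gene summed over cells and scaled to a fixed total of gene UMIs). The 114 cells with 5 to 9 UMIs had 1226 CPM of Gzmb, the 67 members with 10 to 14 had 1748 CPM, and the 244 members with 15 or more had 8294 CPM. These values cannot tell whether the edge is gradual or sharp. At the chemokine limit, 17 members had 10 to 19 UMIs of the 4 genes and 21 cells just outside had 20 to 39. At the memory limit, 204 members had 0 and 107 had 1 UMI, and 91 cells just outside had 2.

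Most WT and RARα-KO members belonged to expanded clones. Clonotypes of 10 or more TCR cells of the same genotype held 53 of 69 WT members (76.8%, 65.1% to 86.1%) and 166 of 221 RARα-KO members (75.1%, 68.9% to 80.7%), but 0 of 11 RARα-TG members, which by the floor of 3 counts allows a share of up to 27.3%. A stricter hashtag rule (20 UMIs and 10 times the next) left 10 WT members, of which 2 (20%, 2.52% to 55.6%) were in such clonotypes. That rule kept only 206 of 792 WT CD8 cells, and sizes count cells of the same genotype. It can therefore lower WT clonotype sizes by itself, and this share cannot tell whether the 10 members came from expanded clones. In the other CD8 cells the shares were 58.4% for WT (54.7% to 62.0%), 69.7% for RARα-KO (66.4% to 72.8%) and 0 of 90 for RARα-TG. In WT the interval of the members lay above that of the other CD8 cells, and in RARα-KO the 2 intervals overlapped. The WT share was not particular to the members. WT cells that failed only the Gzmc to Gzmf limit had 47 of 61 (77.0%) in such clonotypes, and those that failed only the memory limit 47 of 66 (71.2%). WT cells that lacked only the Gzmb and Prf1 level had 100 of 186 (53.8%). Members fell into 32 distinct WT clonotypes, 66 of RARα-KO and 11 of RARα-TG, where each member had its own clonotype. Drawn down to 69 members, 34.8 RARα-KO clonotypes are expected, beside the 32 of WT.

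The same clones reached other states. Of the 27 WT member clonotypes with 2 or more CD8 cells, 25 also held low-cytotoxic neighbours, 17 memory-gene neighbours, 15 Gzmc to Gzmf neighbours and 4 chemokine-high neighbours. Of the 50 such RARα-KO clonotypes, 34 also held low-cytotoxic, 32 memory-gene, 15 Gzmc to Gzmf and 16 chemokine-high neighbours. At least 1 of the 6 neighbour states was found in 26 of 27 WT clonotypes (96.3%, 81.0% to 99.9%) and 44 of 50 RARα-KO clonotypes (88%, 75.7% to 95.5%). Within the 5 largest WT clonotypes, members were 12.1% to 24% of the CD8 cells, and within the 5 largest RARα-KO clonotypes 18.2% to 28.2%. The largest, RARα-KO clonotype 1, had 30 members among 119 CD8 cells (25.2%), and WT clonotype 5 had 10 among 62 (16.1%). Hashtags followed the receptors: 1 of 108 member clonotypes had members of more than 1 genotype, and 9 of 1510 TCR cells of these clonotypes carried another hashtag than most of their clonotype.

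**Figure D2:**
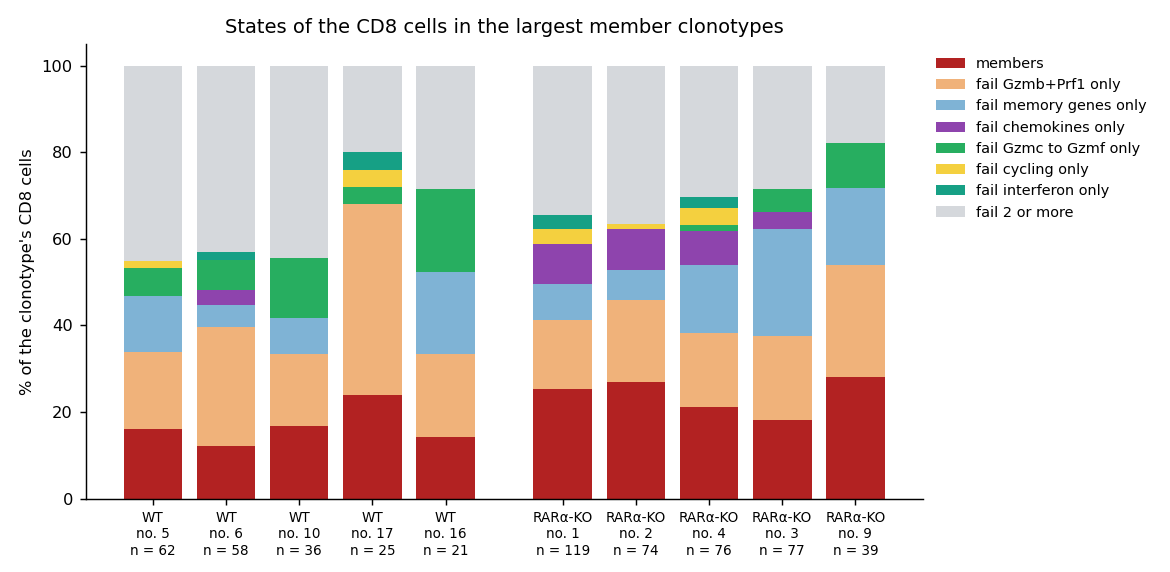
Share of the CD8 cells of each of the 5 largest WT and 5 largest RARα-KO member clonotypes that were members, neighbours failing a single condition, or cells failing 2 or more, in percent. Members take 12.1% to 24% of the WT and 18.2% to 28.2% of the RARα-KO clonotypes, and chemokine-high neighbours appear in 4 of the 5 RARα-KO clonotypes and 1 of the 5 WT clonotypes.

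The granule genes of the rule were the first level compared, as a description. Gzmb (ENSMUSG00000015437 in Ensembl, GRCm38 chromosome 14, 56258836 to 56262334) was at 4447 CPM in members from WT, at 7878 CPM in those from RARα-KO and at 4777 CPM in those from RARα-TG. Prf1 (chromosome 10, 61297751 to 61304684) was at 409.7, 634 and 274 CPM. Per cell, Gzmb and Prf1 together had a median of 22 UMIs in WT members (10 to 163), 33 in RARα-KO members (10 to 449) and 18 in RARα-TG members (10 to 47). The ranges shared their lower end, which the rule set, and the RARα-KO members reached highest. After thinning to 3000 UMIs, Gzmb was found in 0 of 24, 2 of 48 and 0 of 16 myeloid barcodes of WT, RARα-KO and RARα-TG, so free RNA gave few Gzmb UMIs.

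Ccl5 (chromosome 11, 83525778 to 83530518), a chemokine stored and released by effector and memory T cells and not among the 4 chemokines of the rule, was found in most members. It had a median of 15 UMIs per WT member (0 to 352), 79 per RARα-KO member (0 to 573) and 44 per RARα-TG member (2 to 97), and 5704, 16200.1 and 9418 CPM. The log2 ratio of RARα-KO to WT was 1.51 (95% interval 1.45 to 1.56), and that of RARα-TG to WT 0.72 (0.58 to 0.86). After thinning to 3000 UMIs, Ccl5 was found in 83.6% of WT members, 93.8% of RARα-KO members and all 9 RARα-TG members left, and in 4 of 24, 5 of 48 and 0 of 16 myeloid barcodes. The per-cell ranges overlapped widely, and the other CD8 cells showed a ratio of 1.39 (1.37 to 1.42), so a ratio of like size was measured outside the members.

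The remaining markers were sparser. Gzmk (chromosome 13, 113171630 to 113180965), a granzyme of tryptic cleavage, was at 179.5 CPM in WT members, 460.3 in RARα-KO members and 411 in RARα-TG members, with a log2 ratio of 1.36 (1.03 to 1.70) for RARα-KO to WT and 1.20 (0.43 to 1.90) for RARα-TG to WT. Serpine2 (chromosome 1, 79794317 to 79858665), a secreted protease inhibitor, was at 116 CPM in WT and 437 CPM in RARα-KO (log2 ratio 1.91, 1.51 to 2.34), and at 0 UMIs in RARα-TG members, where 3 UMIs would be 58.7 CPM. The RARα-KO ratio of Serpine2 was 0.99 with each clonotype weighted equally, and 1.03 (0.90 to 1.15) in the other CD8 cells. Zbtb32 (chromosome 7, 30589680 to 30602819), a zinc finger repressor of activated lymphocytes, was at 52.8 and 132 CPM (1.33, 0.72 to 1.99) and at 0 UMIs in RARα-TG. As shares of cells at 3000 UMIs, Gzmk was found in 29.9% of WT and 57.6% of RARα-KO members, Serpine2 in 14.9% and 31.9%, and Zbtb32 in 19.4% and 24.3%, and each was at 0 in WT and RARα-KO myeloid barcodes. Each of these 3 markers was thus found in a minority of WT members. The intervals of Zbtb32 overlapped, and those of Serpine2 did so narrowly (7.40% to 25.74% in WT and 25.66% to 38.67% in RARα-KO).

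**Figure D3:**
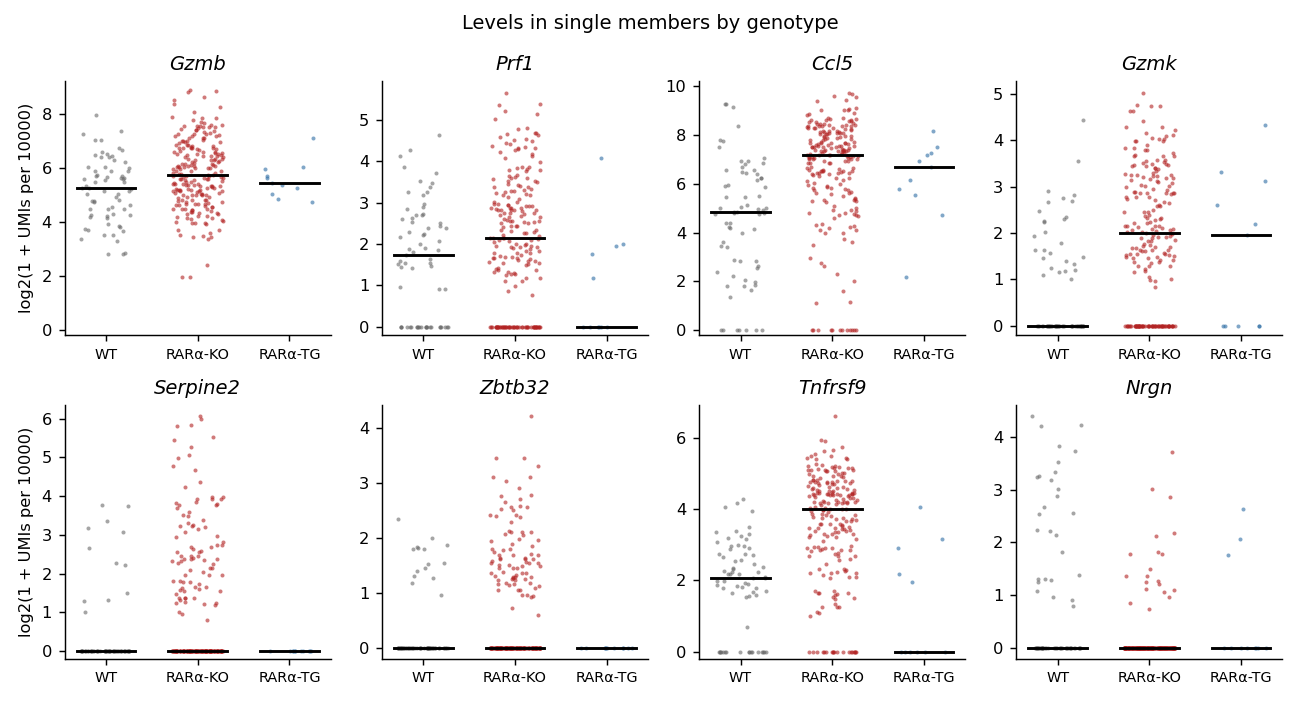
UMIs per 10000 of 8 genes in each member, on a log2 scale after adding 1, for WT (69), RARα-KO (221) and RARα-TG (11); each point is a cell and each bar a median. Gzmb is above 0 in every member, Ccl5 and Tnfrsf9 sit higher in RARα-KO, and Serpine2, Zbtb32 and Nrgn have medians at 0.

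Rara itself (chromosome 11, 98927800 to 98974942) was at 84.5 CPM in WT members (40 UMIs), 68.7 in RARα-KO (98 UMIs) and 117 in RARα-TG (6 UMIs), with a log2 ratio of -0.30 (-0.84 to 0.27) for RARα-KO to WT and 0.48 (-1.05 to 1.72) for RARα-TG to WT. The RARα-KO allele still makes a transcript that lacks an exon, so 5′ counts of Rara do not check that label, and both intervals held 0.

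RARα-KO was compared with WT members over 6534 genes that reached 0.1 UMIs per cell in either genotype. Of these, 338 (5.17%) were 2-fold or more higher in RARα-KO and 186 (2.85%) 2-fold or more lower, and the median log2 ratio was -0.00. Without the 2 stromal barcodes, 318 of 6464 genes (4.92%) were higher and 174 (2.69%) lower. Counts past a fold describe these cells and are no test. Genes of the rule are left out of the counts of each gene list. A gene at 0 UMIs in a genotype was set to 3 UMIs there, so its ratio rests on this floor.

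Of the 12 antigen receptor response genes measured, 4 were 2-fold higher and none 2-fold lower, and the list's median was 0.33 in members and 0.84 in the other CD8 cells. Tnfrsf9 (4-1BB, a costimulatory receptor induced by antigen, chromosome 4, 150920155 to 150946104) had a median of 2 UMIs per WT member (0 to 14), 9 per RARα-KO member (0 to 48) and 0 per RARα-TG member (0 to 9). Its level was 389 CPM in WT members, 1637 in RARα-KO members and 392 in RARα-TG members, a log2 ratio of 2.08 (1.86 to 2.30) for RARα-KO to WT and 0.01 (-0.73 to 0.68) for RARα-TG to WT. In the other CD8 cells the RARα-KO ratio was 1.58 (1.50 to 1.65), so its interval lay below that of the members. With each clonotype weighted equally, the ratio in members was 1.52, so whether it was larger in members depends on the weighting. At 3000 UMIs Tnfrsf9 was found in 55.2% of WT and 88.6% of RARα-KO members. Egr1, an immediate early transcription factor, had 9 WT and 127 RARα-KO UMIs (2.23, 1.26 to 3.39). The other 2 moved without the stromal barcodes. Jun had 42.1% of its RARα-KO UMIs in 1 cell, and its log2 ratio went from 2.78 to 1.74. Myc, with 5 and 33 UMIs, went from 1.13 to -1.52 and then fell under the gene filter. Fos, with 15 and 24 UMIs, went from -0.91 to -1.73. Without these barcodes, 3 genes of the list were higher and 1, Fos, was lower, with a median of 0.23.

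Inhibitory receptors did not move together. Havcr2 was at 160 CPM in WT and 336 in RARα-KO members (1.06, 0.71 to 1.43), Lag3 at 475 and 782 (0.72, 0.51 to 0.93), Ctla4 at 165 and 320.2 (0.96, 0.61 to 1.32) and Tigit at 319 and 435 (0.45, 0.19 to 0.71). Pdcd1 was lower, at 777 CPM in WT and 427 in RARα-KO (-0.87, -1.05 to -0.67). In the other CD8 cells the ratios were 0.80 for Havcr2, 0.23 for Lag3, 0.53 for Ctla4, 0.21 for Tigit and -0.97 for Pdcd1. Of these 5 receptors, 4 were thus higher and PD-1 lower in RARα-KO, and Havcr2 passed 2-fold, as did Ctla4 without the 2 stromal barcodes (1.03). Among the 12 listed exhaustion and inhibitory genes measured, 1 (Havcr2) was 2-fold higher and 1 lower, with a median of 0.31, and the lower was Cd244a with 9 and 13 UMIs (-1.06, and -0.99 without the stromal barcodes). The costimulation list, which holds receptors and ligands, had a median of 0.39 over 11 genes. In it 2 were higher (Tnfrsf9 and Cd81, the latter at 0 and 34 UMIs) and 1 lower (the ligand gene Tnfsf11, 11 and 16 UMIs, -1.05). Of the RARα-KO UMIs of Cd81, 52.9% were in 1 cell, and without the stromal barcodes 1 gene of the list was higher and none lower, with a median of 0.23. Tnfsf11 turned to 1.04 with each clonotype weighted equally. Icos, which sustains activated T cells, was at 486 and 908 CPM (0.90, 0.70 to 1.11; 0.37 in the other CD8 cells).

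Homing and adhesion genes split. Itga4 (chromosome 2, 79255426 to 79333114), the alpha-4 integrin chain that pairs with beta-7 or beta-1, had 10 UMIs in 5 WT members, 262 UMIs in 102 RARα-KO members and 5 UMIs in 4 RARα-TG members. The RARα-KO to WT ratio of Itga4 was 3.12 (2.22 to 4.20) in members and 3.09 (2.77 to 3.42) in the other CD8 cells. Itgb7, its beta-7 partner, was at 82.4, 179 and 254.5 CPM (1.12, 0.63 to 1.65). Itgae, the alpha chain of the E-cadherin receptor of resident T cells, and the chemokine receptor Ccr8 were lower, at -1.48 (-2.32 to -0.64) and -1.36 (-1.86 to -0.84). With each clonotype weighted equally, Itgae was at -0.045, and under the stricter hashtag rule at 0.36 (-2.25 to 5.72). Over the 14 chemokine receptors and integrins measured, 2 were higher, 2 lower and the median was 0.23.

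The other granule genes went both ways. Of 12 measured, 1 (Gzmk) was 2-fold higher, 1 (Tnfsf10, with 10 and 15 UMIs) was 2-fold lower and the median log2 ratio was -0.02. Nkg7, a granule membrane protein, was at 3554 and 4524 CPM (0.35, 0.27 to 0.43, but -0.050, -0.21 to 0.11, under the stricter hashtag rule with 10 WT members) and Srgn, the proteoglycan that packs granzymes, at 1692 and 2580.3 CPM (0.61, 0.50 to 0.72). Ctsw, a cathepsin of cytotoxic cells, was lower at -0.61, and Fasl was at -0.32 (-0.74 to 0.12). Gzma, another tryptic granzyme, was at 2080.1 CPM in WT and 1089 in RARα-KO members (-0.93, -1.05 to -0.82), but 1 WT cell held 423 of the 985 WT UMIs (42.9%). Without that cell the ratio was -0.17 (-0.31 to -0.03), with equal clonotype weights 0.14, and under the stricter hashtag rule 0.95.

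Transcription factors of effector cells had a median of 0.07 over 14 genes, with 3 higher and 1 lower. The 3 higher factors were Zbtb32, given above, Prdm1 (Blimp-1), which had 1 UMI in WT and 44 in 29 RARα-KO members (3.87, 1.31 to 9.20), and Eomes, with 6 and 60 UMIs (1.73, 0.52 to 3.23). Ikzf2 (Helios) was lower, with 37 WT and 30 RARα-KO UMIs (-1.89, -2.64 to -1.16), as was Irf8 (-0.93, -1.20 to -0.66), which did not pass 2-fold. Batf was at 86.6 and 123 CPM (0.51, 0.01 to 1.04) and Tbx21 (T-bet) at 108 and 79.2 CPM (-0.44, -0.93 to 0.06). The factors with the largest ratios were therefore also those with few UMIs. Of the 9 naive and memory genes outside the rule, 2 were higher, with a median of 0.54. Klf2 was one of these, with 57.4% of its RARα-KO UMIs in 1 cell and a ratio of 1.66 that became 0.39 without the stromal barcodes. Klf3 was the other, with 0 WT and 38 RARα-KO UMIs. Its ratio was 2.07 with WT set to 3 UMIs (lower limit 1.70), and 1.80 without the stromal barcodes.

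Among cytokines and their receptors, more genes were below 0 than above. Csf1, the macrophage growth factor, was at 304 CPM in WT and 82.7 in RARα-KO members (-1.88, -2.24 to -1.52), and Tgfb1 at -0.69. Of 6 chemokine and cytokine genes measured outside the rule, 1 (Ccl5) was higher, 2 (Ccl1, with 15 UMIs in both, and Lta, with 10 and 15) were lower and the median was -0.49. Of 12 cytokine receptors, none was 2-fold higher, 1 was lower and 9 were below 0, with a median of -0.32. The lower receptor was Il1r2, the decoy receptor for interleukin-1, with 77 UMIs in both genotypes over unequal totals (-1.59, -2.07 to -1.12), and Il18r1 was at -0.98 (-1.48 to -0.47) and Il2rb at -0.22 (-0.40 to -0.04), which turned to 0.34 under the stricter hashtag rule.

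The largest decrease was in Nrgn (chromosome 9, 37544493 to 37552745), which encodes neurogranin, a calmodulin-binding protein. It had 132 UMIs in 28 of 69 WT members and 33 UMIs in 20 of 221 RARα-KO members, a log2 ratio of -3.59 (-4.19 to -3.03), and -2.58 (-2.76 to -2.40) in the other CD8 cells. Rpl29, a ribosomal protein gene, was at 3125 CPM in WT members, 379.7 in RARα-KO members and 2487 in RARα-TG members (RARα-KO to WT -3.04, -3.19 to -2.90), and its ratio was -3.02 in myeloid barcodes. At the other end, Gm42031 had 0 WT and 154 RARα-KO UMIs, a ratio of 4.09 with WT set to 3 UMIs (lower limit 3.77). Its ratio was 6.05 in myeloid barcodes. Rpl29 and Gm42031 thus differed as much in cells outside the T lineage.

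All 10 heat shock genes measured were above 0 in RARα-KO members, 2 of them by 2-fold, with a median of 0.62 in members and 0.63 in the other CD8 cells. The 2 were Hspa1b (7 and 479 UMIs, 4.50, 3.45 to 5.83) and Hspa1a (4 and 228 UMIs, 4.24, 2.87 to 6.13), near-identical genes whose reads cannot be told apart with certainty. They were also higher in RARα-KO myeloid barcodes, at 3.63 and 2.64. In RARα-TG members, against the same WT members, Hspa1a was at 4.21 (2.31 to 6.39) from 8 UMIs, Hspa1b at 2.99 (1.14 to 4.79) from 6 UMIs and Hspe1 at 1.19 (0.66 to 1.70). Of 13 glycolysis and hypoxia genes, 11 were above 0 and none passed 2-fold, with a median of 0.41, as for Pgk1 at 1020.0 and 1355 CPM and Gapdh at 8732 and 11818 CPM. Of 10 interferon-stimulated genes outside the rule, 6 were above 0 and 4 below, and 2 were 2-fold higher, with a median of 0.25: Gbp2 (1.37, 0.65 to 2.16) and Ly6a (971 and 1962 CPM, 1.01, 0.87 to 1.16). Isg15 was at -0.48 (-0.88 to -0.07), and at 0.22 with equal clonotype weights. Ifitm2, which is in no list, was lower (-1.62, -1.79 to -1.46).

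Other lists gave little. NK-type receptors had 1 higher and 1 lower of 8 with a median of -0.18. The higher was Klrc2, with 6 and 37 UMIs (1.03, -0.22 to 2.57), which was at -0.36 with equal clonotype weights. The lower was Fcer1g, with 18 UMIs in 3 WT members and 10 in 6 RARα-KO members (-2.44, -3.72 to -1.25), and Klre1, an NK receptor chain, was at 196 and 100.2 CPM (-0.97, -1.36 to -0.58). Serpins had 1 higher (Serpine2, at 0.99 with equal clonotype weights) of 6 and a median of -0.18. Proliferation genes outside the rule had 1 lower (Cks1b, 10 and 13 UMIs) of 6 and a median of -0.38. The 2 retinoid genes measured had a median of -0.03, and the 8 T cell markers outside the rule had none past 2-fold and a median of -0.02. Of the genes in the 12 highest ratios of all members, Sparc, Ctsl, Cd63, Cxcl1, Ly6c1 and Tsc22d1 left the list without the 2 stromal barcodes. Ctsl went from 4.61 to 0.29, and Tsc22d1 from 3.54 to 1.94. Without these barcodes, the granule list had 1 gene higher and none lower, the exhaustion and inhibitory list 2 and none, the chemokine and cytokine list 1 and 1, and the chemokine receptors and integrins 3 and 2.

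**Figure D4:**
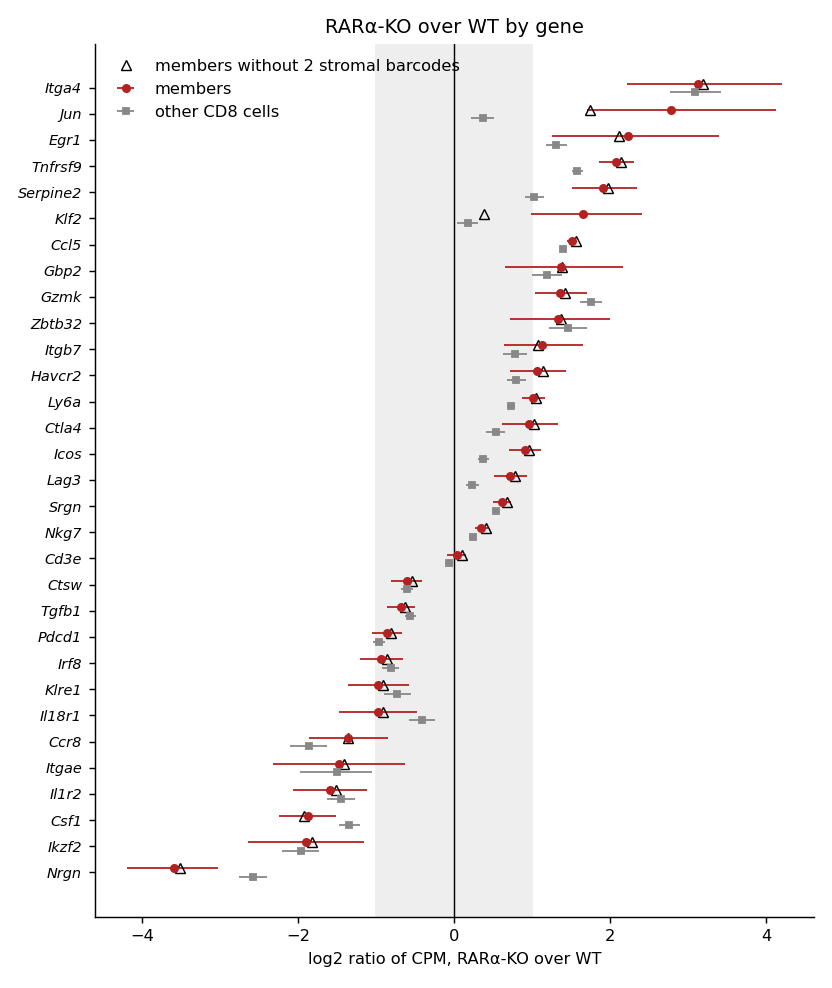
Log2 ratio of CPM of RARα-KO to WT for 31 genes in members (circles, with 95% counting intervals), in members without the 2 stromal barcodes (triangles) and in other CD8 cells (squares). Itga4, Tnfrsf9 and Ccl5 lie right of the grey 2-fold band and Nrgn, Ikzf2 and Csf1 left of it, and Klf2 falls to 0.39 without the stromal barcodes.

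The 11 RARα-TG members allow few statements. Against WT, Itga4 was at 2.21 (0.31 to 3.90) from 5 UMIs and Itgb7 at 1.63 (0.60 to 2.56) from 13 UMIs. Cd7, a T and NK cell surface protein, had 34 UMIs in 9 of 11 cells, against 39 in 8 of 69 WT members (3.01, 2.31 to 3.72). Lag3 was lower (-1.43, -2.58 to -0.48), as were Ly6a (-1.55, -2.34 to -0.85), Irf8 (-2.72, -5.01 to -1.15) and Pgk1 (-2.24, -3.26 to -1.39), and Havcr2 had a single UMI. Fcer1g was higher at 2.85, with all 14 UMIs in 1 cell. RARα-KO values of these genes, given above, used the same WT members.

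Levels also varied between clones. Tnfrsf9 was at 110 to 608 CPM in the members of the 5 largest WT clonotypes and at 1241 to 2458 CPM in those of the 5 largest RARα-KO clonotypes, with no overlap. Gzmk ran from 56.3 to 614 CPM and from 423 to 776 CPM, Pdcd1 from 451 to 1162 and from 124 to 655, and Serpine2 from 0 to 181 and from 110.1 to 1062, and these ranges overlapped. Ccl5 overlapped as well, from 3727 to 21024 CPM in WT and 12834 to 26922 in RARα-KO. Gzma reached 9712 CPM in WT clonotype 17, where 1 cell held 423 of the 443 UMIs.

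Itga4 differed between clonotypes, a pattern singled out after its values were seen. In RARα-KO members it was at 325 CPM in clonotype 1, 331 in clonotype 4 and 245.5 in clonotype 9, but at 0 UMIs in the 20 members of clonotype 2 and the 14 of clonotype 3, where 3 UMIs would be 25.1 and 41.3 CPM. The CD8 cells of the same clonotypes that were no members had 230 CPM in clonotype 1, 198 in clonotype 4 and 214 in clonotype 9, and again 0 UMIs in the 54 cells of clonotype 2 and the 63 of clonotype 3, with 3 UMIs at 10.6 and 10.2 CPM. Itga4 was thus absent at this depth from 2 of the 5 clonotypes, in members and other cells alike, and clonotypes 1, 4 and 9 are also those whose members carried beta chains of each other. Csf1 was at 318 CPM in clonotype 2 and at 8.55 to 54.6 CPM in the other 4 RARα-KO clonotypes, where clonotypes 1, 4 and 3 had 2 UMIs each, under the floor of 3. The other CD8 cells had 271 CPM of Csf1 in clonotype 2, 228 in clonotype 3, 142 in clonotype 9, 44.2 in clonotype 4 and 12.9 in clonotype 1. Ifitm2 ran from 325 CPM in WT clonotype 10 to 4469 CPM in WT clonotype 5, and from 286 to 702 CPM in the RARα-KO clonotypes, so these ranges overlapped.

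**Figure D5:**
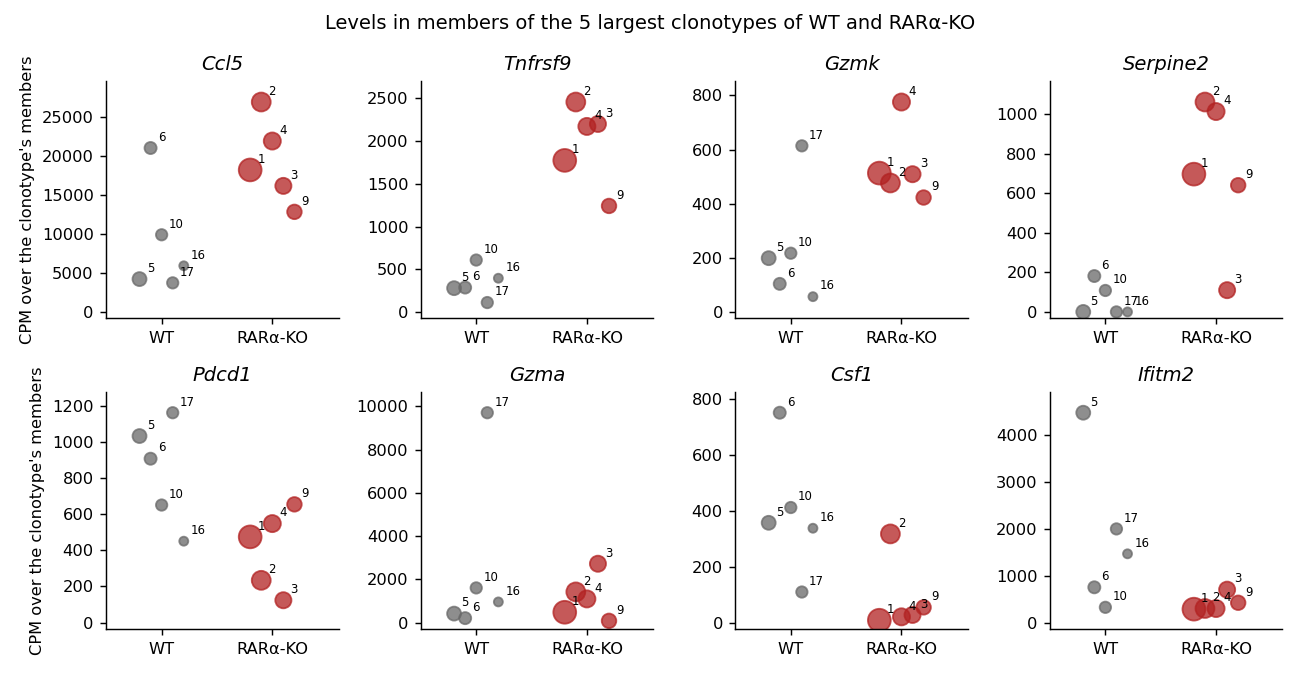
CPM of 8 genes in the members of the 5 largest WT and 5 largest RARα-KO clonotypes; each point is a clonotype, its number is printed beside it and its area grows with its members. Tnfrsf9 is at 110 to 608 CPM in WT and 1241 to 2458 CPM in RARα-KO without overlap, while Ccl5, Gzmk, Serpine2 and Pdcd1 overlap.

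The neighbour states show where the borders of the rule lie, as a description, since the rule used these counts. Against chemokine-high cells (8 in WT and 52 in RARα-KO), 53 of 3309 genes (1.6%) were 2-fold higher and 63 (1.9%) 2-fold lower in members of both genotypes. Among the lower genes were Nr4a1, an immediate early gene of receptor signalling (-2.16 in WT and -2.83 in RARα-KO), Irf4 (-2.60 and -1.80), Nfkbid (-3.65 and -3.09), Nfkbiz (-2.33 and -2.37) and the chemokine Ccl1 (-3.28 and -3.92). Zbtb32 was also lower in members than in chemokine-high cells (-1.63 and -1.10). Gzmk was higher in members (1.13 and 1.37), and its WT value rests on 4 UMIs of the 8 chemokine-high cells.

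Against low-cytotoxic neighbours, 17 of 5669 genes (0.3%) were higher and 19 (0.335%) lower in members of both genotypes. Higher were Spp1 (osteopontin, 3.09 in WT and 4.64 in RARα-KO), Entpd1 (CD39, 1.14 and 1.34) and Anxa1 (1.10 and 1.53). Lower were Ccr7, the lymph node homing receptor (-2.12 and -1.52), the surface protein gene Emb (-1.20 and -1.51) and Bach2, a repressor of effector genes (-1.47 and -1.28). Ccl5 was at 4899 and 13383 CPM in these neighbours, and its ratios of 0.22 and 0.28 were small beside those between the genotypes. Serpine2 was at 0.18 (-0.33 to 0.67) in WT and 1.37 (1.11 to 1.63) in RARα-KO.

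Gzmc to Gzmf neighbours had less Ccl5 than members. Of 5169 genes, 25 (0.484%) were higher and 16 (0.31%) lower in members of both genotypes. Ccl5 was higher in members (1.37 and 1.50), as were Ifi27l2a (1.54 and 1.50), Irgm1 (1.57 and 1.55) and Tgtp2 (1.26 and 2.78), which are interferon-induced. Lower were Ccl1 (-2.04 and -5.68), the signalling chain Fcer1g (-2.38 and -4.73) and the metallothionein Mt2 (-1.16 and -1.71), and Gzmg, a granzyme beside Gzmc to Gzmf, had 0 UMIs in members against 70 and 24. Against memory-gene neighbours, 0 of 5172 genes (0%) were 2-fold higher and 1 (0.0193%), Egr1, was lower in both genotypes, with 9 UMIs in members against 24 (51.0 CPM) in WT, and 89.0 against 178.5 CPM in RARα-KO. Havcr2 and Lag3 were lower in members than in these neighbours in WT, at -0.66 and -0.47, and at -0.09 and -0.37 in RARα-KO. Against all other CD8 cells, 0 of 6394 genes (0%) were 2-fold higher and 107 (1.67%) lower in members of both genotypes, led by cell cycle genes such as Rrm2 and Tpx2, which the limit on cycling cells touches.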

How the data were processed

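Per the labels, the 3 genotypes were pooled into 1 droplet library. The authors aligned reads to mm10 (GRCm38) and deposited raw UMI counts for 730308 barcodes, 32285 genes and 3 hashtags, with a table of TCR contigs. The submitters' processing notes name Cell Ranger 6.1.0, and the matrix header another major version, 4. Members, neighbours and gene lists were chosen with earlier results of these data known. No mitochondrial filter and no doublet caller were used. UMI counts were summed over the members of a genotype and divided by their gene UMIs (CPM). Ratios are log2 ratios of CPM with exact binomial 95% intervals, and shares have Clopper-Pearson 95% intervals, for counting error only. In ratios, 0 UMIs were replaced by a floor of 3, and a gene had to have 0.1 UMIs per cell in 1 genotype and 20 UMIs in all to be ranked. TCR segments were left out of gene rankings. The genes named are the markers, the genes of the rule and Rara, the 12 highest and 12 lowest ratios of each ranking, the ranked states' genes and genes of the 23 lists; others were chosen after their values were seen. Myeloid barcodes, which show free RNA, had no contig, 10 or more UMIs of Lyz2, C1qa, C1qb, Apoe and Cd68, and no Cd3e. For shares of cells with a UMI, barcodes were thinned to 3000 UMIs and shallower ones left out. Neighbours met every condition of the rule but 1. The expected number of clonotypes at a fixed number of members used the rarefaction formula. Coordinates come from a RefSeq gene table of GRCm38. Scripts ran in Python 3.11.15 with numpy 2.4.6, scipy 1.17.1 and pandas 2.3.3, and the ratio intervals were tested on simulated data. Alternatives changed the limits of the rule, the hashtag rule, the depth, the scaling, the gene filter, the weight of clonotypes and the barcodes kept.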

Additional observations from a re-analysis of the deposited data

Results flagged for a closer look

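Cd74, the invariant chain of antigen-presenting cells, had opposite ratios in members and in the other CD8 cells. RARα-KO members were lower than WT members by a log2 ratio of -2.55, while the other CD8 cells of RARα-KO were higher than those of WT by 1.24. In members, WT had 33 UMIs in 11 cells, 45.5% of them in 1 cell, and RARα-KO had 17 UMIs in 7 cells. In the other CD8 cells, RARα-KO had 1032 UMIs, 90.5% of them in 10 cells with 10 or more each, and WT had 380, 34.2% of them in 5 such cells. The difference between both ratios was not tested, and the part of RNA from other cells in it was not tested.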

How the results depend on the processing

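The share of members among CD8 cells stayed higher in RARα-KO than in WT in each of the 9 alternatives run, while its size moved with the limits. After thinning to 3000 UMIs it was 11.1% in WT and 27.3% in RARα-KO. With a Gzmb and Prf1 minimum of 5 it was 13.9% in WT, 27.2% in RARα-KO cells and 18.8% in RARα-TG cells, and with 20 it was 4.80%, 14.6% and 4.95%. With a memory limit of 1 it was 5.93% and 14.1%. A stricter hashtag rule (20 UMIs and 10 times the next) left 10 of 206 WT cells, or 4.85%. Of these members, 20% were in clonotypes of 10 or more, a share that the loss of WT cells can lower by itself. All WT member clonotypes (100%) then held a neighbour state, as they did with the minimum of 20. Genes past 2-fold, higher and lower, numbered 728 and 531 with no filter, 49 and 25 at 0.5 UMIs per cell, 511 and 379 with equal clonotype weights, and 642 and 568 under the stricter hashtag rule. The median of glycolysis genes was 0.17 with equal clonotype weights, and that of NK-type receptors 0.048 after thinning. Among genes whose interval left out 0, the direction of RARα-KO to WT turned with equal clonotype weights for Cd7 (0.38), Gzma (0.14), Ifngr1 (0.13), Isg15 (0.22), Serpinb9b (0.27) and Gzmc, a gene of the rule (0.55), after thinning for Cd7 (0.089), and with the minimum of 20 for Junb (0.11) and Serpinb9b (0.20). Under the stricter hashtag rule, with 10 WT members, it turned for Bcl2 (1.24), Cd28 (-0.042), Cd7 (0.32), Cxcr3 (-0.13), Cxcr6 (-0.15), Gzma (0.95), Il2rb (0.34), Isg15 (0.013), Itgae (0.36), Lilrb4a (-0.61), Ltb (-0.18) and Nkg7 (-0.050). Klrc2 (-0.36) and Tnfsf11 (1.04), past 2-fold with intervals that held 0, also turned with equal clonotype weights. The cause of these moves was not tested. Other scalings moved the median of all genes by less than 0.1. No paired analysis was possible because each genotype is 1 sample, no replicate could be left out, and RARα-TG genes past 2-fold were not counted with 11 members. Depth limits RARα-TG most, where 3 UMIs are 58.7 CPM. The alternative without barcodes of stromal UMIs was added after the data were seen.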
